A study of Helianthus annuus with 9 samples.

Results

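Small RNA of developing sunflower seeds was compared between day 22 and day 7. The comparison used 6 of the 9 libraries of the series, 3 from each of these days, and every small RNA entry of the deposited count table, 8473 in all. The totals that the table gives for exons, introns and intergenic sequence were left out. The seeds came from field-grown plants of Helianthus annuus line L-1-OL-1, which the labels describe as high in oleic acid, and no treatment or genotype separated the groups, so the day of collection was the only labelled difference. The labels do not say from what event days were counted, which part of the seed was ground, or whether the libraries are from separate plants. The p-values therefore measure the spread between these libraries, which may be technical. Seeds are mixtures of embryo, endosperm and seed coat, and in such bulk samples fewer cells of a type and less RNA per cell cannot be told apart.

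Plant miRNAs are cut from hairpin precursors by a Dicer-like enzyme and guide Argonaute proteins to complementary messenger RNAs, most often those of transcription factors. Small interfering RNAs (siRNAs) of 21 and 22 nucleotides (nt) arise mainly from transcripts copied into double strands and act on RNA, including the phased siRNAs that follow a miRNA cut. Those of 24 nt are made from transposons and repeats and direct DNA methylation, a pathway known to be highly active in developing seeds. The first base of a small RNA is part of what decides which Argonaute protein takes it up.

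Sequences are shown for the small RNAs that carry the comparison, as the deposited table gives them. The siRNAs had the highest counts or largest changes among those of at least 100 CPM (defined below) with reads in all 6 libraries. The predicted miRNAs were named by the same rule with a limit of 10 CPM. The first 3 pairs are siRNAs that overlap each other on one strand, with the shared stretch of 18, 13 and 17 bases in capitals. The members of each pair changed in the same direction.
novel_sir9209 (21 nt, higher at day 22): CCGACTCGCAGACAGCGCctc
novel_sir8810 (24 nt, higher at day 22): aacaacCCGACTCGCAGACAGCGC
novel_sir17151 (22 nt, higher at day 22): taaacatccATTGAGCCTAAGA
novel_sir17197 (22 nt, higher at day 22): ATTGAGCCTAAGAtgtataatt
novel_sir13019 (24 nt, lower at day 22): aagaccaTACGCAAGAACCGGATG
novel_sir11450 (24 nt, lower at day 22): TACGCAAGAACCGGATGaagtaga

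For the other siRNAs the first base is in capitals.
novel_sir15189 (24 nt, higher at day 22): Ctccattaggaactagctagcaac
novel_sir7592 (24 nt, higher at day 22): Acgcttctccagactacaattcgg
novel_sir4547 (24 nt, lower at day 22): Agggtcttggaagggtccacggat
novel_sir12307 (22 nt, higher at day 22): Gttgtcgacaagagccttgagt
novel_sir11520 (22 nt, lower at day 22): Cggctcattacttaggtctagg
novel_sir19669 (21 nt, higher at day 22): Gaacagcccagcttgaaaatc
novel_sir10810 (21 nt, higher at day 22): Ccacgatccatccgctttaac
novel_sir10419 (21 nt, lower at day 22): Aggcctcgtcacaactaactt
novel_sir801 (21 nt, lower at day 22): Aaacttaaccccactgtcttg
novel_sir15071 (21 nt, the most abundant siRNA): Atcgaacaggttcaaggcatc
novel_sir8790 (21 nt, abundant): Caacacttcacattgcagcaa
novel_sir14147 (22 nt, the most abundant of its length): Tgaaagcaacatgttgttcagt

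For the predicted miRNAs the seed, bases 2 to 8, is in capitals. The 10 that were named have 10 different seeds. Their precursors stand on the plus strand of RefSeq sequences; their genome build is not stated.
novel_mir9 (higher at day 22, precursor NC_035435.1:55117526-55117854): aCGTTGAGccttaagaccagctagg
novel_mir46 (higher at day 22, precursor NC_035443.1:121675813-121676246): cTTTGTCGataactgtccatac
novel_mir54 (higher at day 22, precursor NC_035444.1:23355184-23355359): gCGTCGAGtaggtgtttgccatgg
novel_mir84 (lower at day 22, precursor NC_035447.1:20192413-20192580): aCAATCAAaagcatgtggta
novel_mir82 (lower at day 22, precursor NC_035447.1:18721656-18721944): tCAACATGtgtttatagctaat
novel_mir13 (lower at day 22, precursor NC_035435.1:147456508-147456665): cGTCTTCTgttgccataacaaaa

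The libraries held 31011803 to 34397084 reads each. Of these, 2208822 to 2327154 lay in small RNA entries at day 7 and 3330516 to 3674565 at day 22, or 6.78% to 7.12% and 10.4% to 10.7% of all reads. Levels below are counts per 1000000 small RNA reads scaled by the trimmed mean of M values (CPM), with scaling factors of 1.351 to 1.419 at day 7 and 0.9614 to 1.043 at day 22. These ranges run from the lowest to the highest library of a day or of the set and are not error intervals. Day 22 replicate 3 stood apart: over features of more than 50 reads, its mean chi-square against the other day 22 libraries was 19.9 and 25.4, against 5.96 between those and 5.16 to 7.71 within day 7. Ribosomal RNA fragments, which can come from RNA breakdown, made up 3.64%, 3.20% and 2.85% of small RNA reads at day 7 and 5.20%, 5.82% and 3.51% at day 22, ranges that overlap. Reads assigned to 55 Rfam precursor models named after animal miRNAs numbered 920, 847 and 195 at day 7 and 841, 885 and 291 at day 22, lowest in replicate 3 of either day. Their part in the results was not tested.

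Most of what could be tested differed between the days. Known miRNA entries were summed to 39 families, which left 8196 features, of which 7088 had enough reads to test with edgeR's quasi-likelihood test. At a Benjamini-Hochberg adjusted p under 0.05, 5008 of them (70.7%) differed, 2549 (36.0%) higher and 2459 (34.7%) lower at day 22. The median log2 change over all tested features was 0.00 under this scaling. It was 0.14 with upper quartile scaling and 0.07 with all reads as library size, and -0.39 with RLE size factors, -0.36 with DESeq2, -0.49 with library totals alone and -0.70 with known miRNA totals. The negative shifts lower the share of calls that were higher from 50.9%, and each shift moves the log2 changes given here by about as much. Of the tested features 48 had no read in these 6 libraries.

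Known miRNAs were mostly higher at day 22. Of 39 families, 32 were tested, 22 rose, 3 fell and 7 did not pass, with a median log2 change of 1.10. The 3 that fell were miR162, miR393 and miR6111. The background share of calls was 70.7%, so the number of families called is close to it, while 68.8% of families were called higher beside 36.0% of all features.

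**Figure D1:**
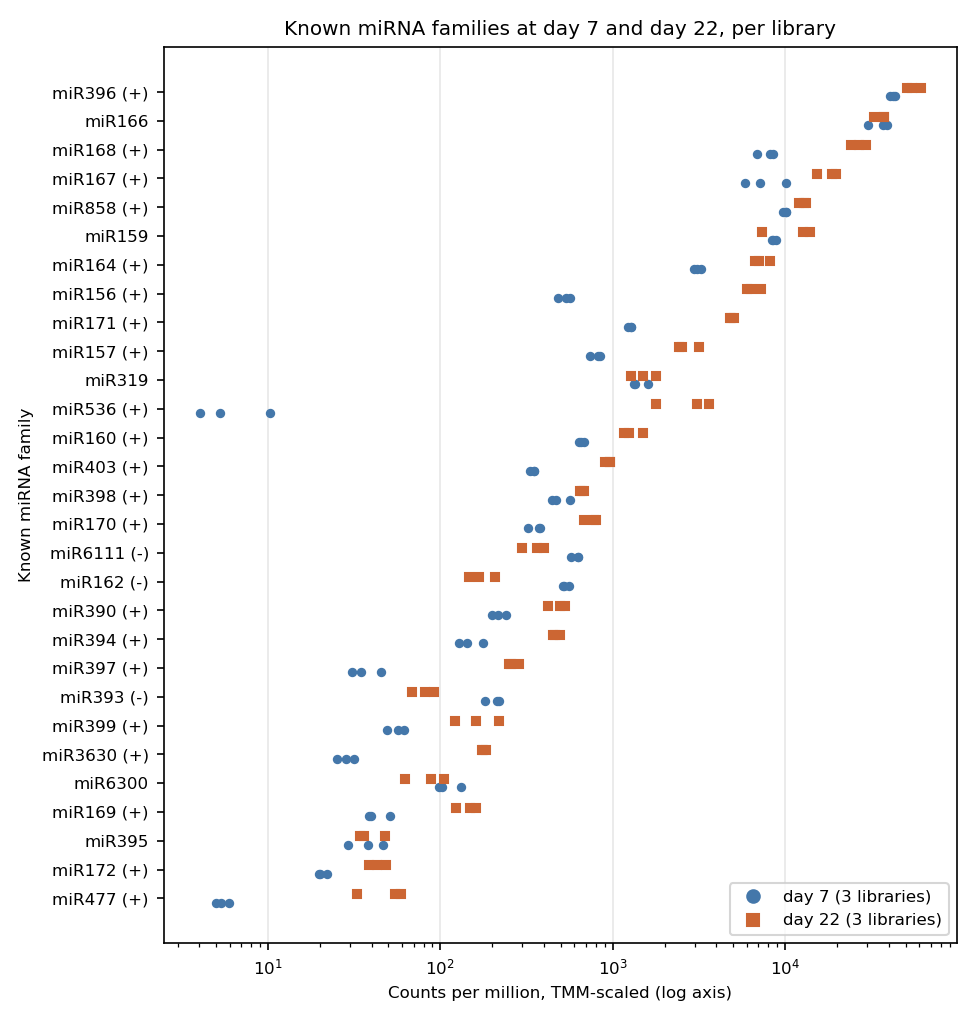
Each row is a known miRNA family of at least 10 CPM over the 6 libraries, and each point 1 library, in CPM on a log axis (circles, day 7; squares, day 22). A plus or minus beside the name marks families called higher or lower at day 22; miR536 lies between 4.02 and 10.3 CPM at day 7 and between 1782 and 3619 CPM at day 22.

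Both families of the phase change list rose (100% called, beside 70.7% of all features). miR156, which represses SPL transcription factors and holds plants in the juvenile phase, stood at 566, 482 and 539 CPM at day 7 and at 6348, 6003 and 7295 CPM at day 22. Every day 22 library stood more than 10-fold above every day 7 library, and the fitted log2 change was 3.63 (SE 0.13, edgeR adjusted p 3.64e-07). Its close relative miR157, named separately in the table, went from 824, 736 and 842 to 2431, 2514 and 3173 CPM (log2 change 1.76). With miR157 joined to miR156, a choice made after seeing the data, the log2 change was 2.80. miR172, which represses AP2-like factors later in the same pathway, rose from 19.8, 19.96 and 22.2 to 43.1, 38.4 and 48.5 CPM (log2 change 1.07, edgeR adjusted p 0.000923). That rise was in reads of the hairpin: they went from 3.35, 2.81 and 2.81 to 35.1, 31.5 and 36.5 CPM, while mature miR172 went from 16.4, 17.2 and 19.4 to 8.05, 6.87 and 12 CPM. The rise was lost with known miRNA totals, and tested from mature entries alone miR172 fell, with a log2 change of -0.97 (edgeR adjusted p 0.00653).

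Of the 4 families of the auxin list, 3 rose and 1 fell (100% called, beside 70.7% of all features). miR167, which acts on auxin response factors, rose from 7158, 10069 and 5824 to 15234, 19636 and 18622 CPM, with no overlap between the days (log2 change 1.21, SE 0.24, edgeR adjusted p 0.00167). miR160, which acts on other members of that factor family, rose from 655 ± 21.8 CPM (SD, n = 3) to 1304 ± 181 CPM (log2 change 0.99), a call lost with known miRNA totals. miR393, which represses the TIR1-type auxin receptors, moved the other way and stood at 213, 181 and 220.4 CPM at day 7 and 81.4, 68.4 and 92.3 CPM at day 22. Its day 22 libraries all lay below its day 7 libraries, with a log2 change of -1.34 (SE 0.13, edgeR adjusted p 4e-05). miR390, which starts the production of phased siRNAs from TAS3 transcripts, rose with a log2 change of 1.14, and its mature and hairpin entries went opposite ways. Mature miR390 went from 41.9, 35.3 and 40.9 to 353, 405 and 459 CPM, a log2 ratio of 3.37, whereas reads of its hairpin went from 199.7, 163 and 175 to 68.1, 89.6 and 67.6 CPM, a log2 ratio of -1.26.

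Of the 8 families on the list for development, most of which act on transcription factors, 5 rose and 3 did not pass. The share called, 62.5%, was near the 70.7% of all features. miR396, which represses growth-regulating factors, was the most abundant family at both days. It went from 42239, 43438 and 40609 CPM to 51307, 54434 and 61413 CPM without overlap, a log2 change of 0.40 (SE 0.12, edgeR adjusted p 0.0157). This small rise turned to -0.059 with library totals and -0.25 with known miRNA totals, and its call was lost with RLE size factors, with DESeq2, without any one of the day 7 replicates, without day 22 replicate 3 and with replicates 1 and 2 alone. miR166, which represses class III HD-ZIP factors and is known for its role in polarity, stood at 36937, 39191 and 30196 CPM and 37652, 37706 and 32766 CPM, ranges that overlap (log2 change 0.02, edgeR adjusted p 0.851). The family was called lower with RLE size factors (log2 change -0.32, edgeR adjusted p 0.024), library totals (-0.44, 0.00171) and known miRNA totals (-0.62, 0.00142) and with DESeq2 (-0.32, DESeq2 adjusted p 0.00582). Mature entries of miR166 tested alone were higher, with a log2 change of 0.58 (edgeR adjusted p 0.000884), while reads of its hairpins went from 24278, 25531 and 19484 to 18359, 18437 and 15961 CPM. As a share of known miRNA reads miR396 went from 34.4% ± 1.47 (SD, n = 3) to 29.0% ± 2.91 and miR166 from 28.8% ± 1.74 to 18.7% ± 1.32.

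The rises among the other developmental families were larger. miR171, which represses GRAS factors of the scarecrow-like type, went from 1286, 1227 and 1281 to 4790.1, 4879 and 5065 CPM (log2 change 1.96, SE 0.07). miR164, which represses NAC factors, went from 3267, 2972 and 3098 to 6684, 7047 and 8213 CPM (log2 change 1.23). miR169, which acts on subunit A of the nuclear factor Y, rose with a log2 change of 1.75 and miR394, which acts on an F-box gene, with one of 1.64. For miR159, which represses GAMYB factors, the day 22 libraries fell apart, at 12644, 13914 and 7331 CPM beside 8498, 8836 and 8381 CPM at day 7. It did not pass (log2 change 0.40, edgeR adjusted p 0.113), passed with upper quartile scaling, with all reads as library size, without day 22 replicate 3 and with replicates 1 and 2 alone, and turned to -0.081 with library totals and -0.26 with known miRNA totals, where it did not pass. miR319, a relative of miR159 that acts on TCP factors, stood at 1429.8 ± 150.3 CPM at day 7 and 1519 ± 256 CPM at day 22 and did not pass, but was called lower with known miRNA totals (log2 change -0.56, edgeR adjusted p 0.0144).

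Families tied to nutrients and copper moved unequally. miR397, which represses laccases, rose from 34.5, 45.5 and 30.6 to 256, 252 and 287 CPM (log2 change 2.84, SE 0.16, edgeR adjusted p 1.86e-06). miR399, which reports phosphate supply by repressing PHO2, rose from 61.3, 48.98 and 56.5 to 121, 162 and 218 CPM (log2 change 1.59). miR398, which represses copper/zinc superoxide dismutases, was higher by a log2 change of 0.43. That call was lost without day 7 replicate 2 or 3, with RLE size factors, with DESeq2 and with replicates 1 and 2 alone, and the sign turned to -0.034 with library totals and -0.22 with known miRNA totals. miR395, which acts in sulfate assimilation, stood at 37.9, 46.5 and 29.3 and 34.2, 35.9 and 47.7 CPM and did not pass. The list thus had 3 rises in its 4 families in the table, or 75% called beside 70.7% of all features.

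The 3 families that act on the silencing machinery split (100% called, beside 70.7% of all features). miR168, which represses ARGONAUTE1, rose from 8567, 8138 and 6877 to 29628, 26695 and 24136 CPM, a log2 change of 1.77 (SE 0.12, edgeR adjusted p 5.63e-06), and its share of known miRNA reads went from 6.40% ± 0.394 (SD, n = 3) to 13.9% ± 1.48. miR403, which represses ARGONAUTE2, rose from 348, 332 and 349 to 903, 969 and 967 CPM (log2 change 1.46). miR162, which represses DICER-LIKE1, the enzyme that makes miRNAs, fell from 561, 525 and 517 to 168, 148 and 209 CPM (log2 change -1.61, SE 0.18, edgeR adjusted p 7.23e-05). No library of one day overlapped the other in any of the 3. miR858, which represses MYB factors and can start phased siRNAs, went from 9985 ± 246 CPM (SD, n = 3) to 12723 ± 599 CPM. Its log2 change of 0.35 passed, turned to -0.12 with library totals and to -0.30 with known miRNA totals, where it was called lower (edgeR adjusted p 0.034), and was not past the threshold with RLE size factors or DESeq2.

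The family with the largest change was miR536. It gave 12, 17 and 33 reads at day 7 and 10714, 11588 and 6833 reads at day 22, or 4.02, 5.303 and 10.3 CPM and 3079.9, 3619 and 1782 CPM. Its mean ratio was 432, with a fitted log2 change of 8.74 (SE 1.06, edgeR adjusted p 0.000117). From 0.00548% of known miRNA reads it came to 1.46% ± 0.469 (SD, n = 3). miR477 rose from 5.36, 4.99 and 5.93 to 54.6, 32.8 and 58.9 CPM and miR3630 from 31.5, 25.3 and 28.4 to 175, 184 and 177 CPM, with log2 changes of 3.16 and 2.65. miR6111 fell from 629, 573 and 634 to 366, 299.5 and 401 CPM (log2 change -0.78, edgeR adjusted p 0.00842). miR170, whose sequence is close to miR171, rose with a log2 change of 1.07, and miR4995 passed at a mean below 10 CPM (log2 change 1.22). miR6300 (log2 change -0.38), miR845 and miR5538 did not pass. miR6300 was called lower with RLE size factors (-0.72), DESeq2 (-0.72), library totals (-0.85) and known miRNA totals (-1.03) and without day 22 replicate 2 (-0.56).

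Single entries of a family did not always follow it. Reads of near-identical entries shifted as a block between libraries of the same day: of 326 pairs of entry and day with a mean of at least 20 reads over the 6 libraries, 66 had libraries at least 10-fold apart. At day 7, miR396f_1 had 118690, 131041 and 342 reads while miR396e-5p had 426, 474 and 122726. At day 22, the hairpin entry miR166h-3p_1 had 15, 14 and 48490 reads while that of miR166u had 52004, 48528 and 41. Such entries were read only as part of their family. Of the 118 entries whose libraries stayed within 10-fold at both days, 71 were called higher, 16 lower and 31 not, when tested singly. Beside these stand 70.7% of all features called, 36.0% higher and 34.7% lower.

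Among these steadier entries, 6 of the 27 families held entries called in both directions. The entries described here were picked after their values were seen. miR171a_1 had 33, 38 and 32 mature reads at day 7 and 1820, 1779 and 2090 at day 22 (log2 change 5.62), and miR171i_1 went from 25.5, 29.6 and 25.3 to 14.9, 17.5 and 14.9 CPM (log2 change -0.77). In miR396, mature miR396b-5p fell from 431, 471 and 389 to 198, 221 and 204 CPM (edgeR adjusted p 0.0034) beside the rise of the family. Mature miR319a_1 fell from 779, 641 and 652 to 428, 311 and 499 CPM (log2 change -0.74) within a family that did not pass. Mature miR167a fell with a log2 change of -0.81, whereas miR167a-5p rose with one of 1.03. In miR156, mature miR156k_2 went from 2.34, 2.496 and 3.12 to 200.4, 207 and 266 CPM and miR156i-3p_1 from 8.04, 4.37 and 4.995 to 267, 289 and 256 CPM, both past the family's log2 change of 3.63.

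The pool of listed siRNAs moved from 24 nt toward 21 nt. Reads counted only as intergenic are not part of this pool. They made up 83.3% to 83.6% of all reads at day 7 and 78.9% to 80.0% at day 22. Guides of 24 nt made up 19.4% ± 0.624 of small RNA reads at day 7 and 9.44% ± 0.575 at day 22 (SD, n = 3 each). Guides of 21 nt made up 31.1% ± 0.466 and 39.6% ± 1.19. The 23-nt share went from 4.99, 5.02 and 5.42% to 2.97, 2.82 and 2.84%. Known miRNAs with their hairpins held 16.9, 17.96 and 15.98% at day 7 and 18.9, 18.9 and 19.8% at day 22. None of these 4 classes overlapped between the days, and each gave 0.1 in the exact two-sided permutation test, the smallest p that 3 against 3 allows. The 22-nt share fell by 1.14 percentage points without overlap (exact permutation p 0.1), but as a share of all reads it was 0.59 points higher. As shares of all reads the other changes were -0.37 points at 24 nt, -0.059 at 23 nt, 1.97 at 21 nt and 0.83 for known miRNAs. The size of the fall at 24 nt thus depends on the total it is set against.

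**Figure D2:**
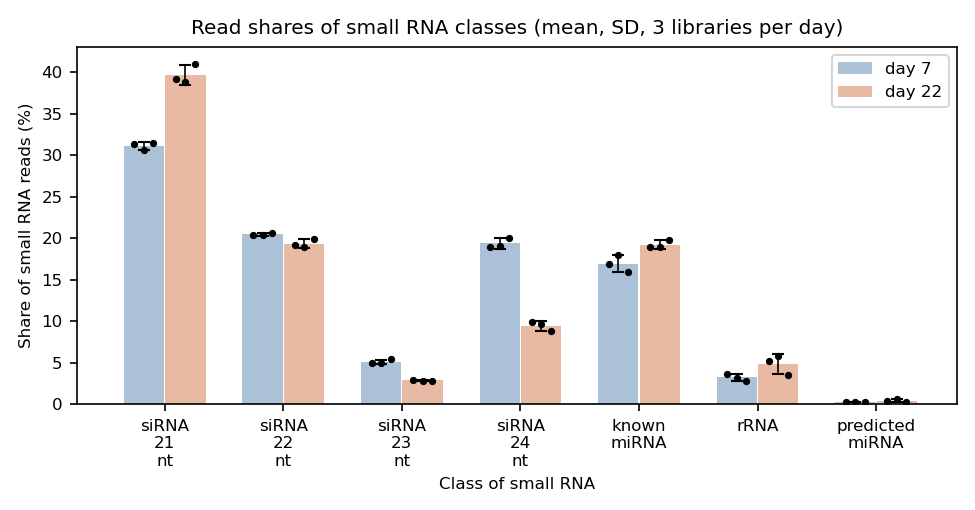
Share of small RNA reads per class in percent, with bars for the mean of 3 libraries, whiskers for the SD and points for single libraries (blue, day 7; orange, day 22). The 24-nt share lies between 18.9% and 20.1% at day 7 and between 8.78% and 9.85% at day 22.

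Single siRNAs split by length in the same way. Of 2483 tested 24-nt siRNAs, 159 rose and 1533 fell, with a median log2 change of -1.37. Of 2497 tested 21-nt siRNAs, 1428 rose and 389 fell (median 0.94), and of 1572 tested 22-nt siRNAs, 784 rose and 363 fell (median 0.78). The 240 tested 23-nt siRNAs went with the 24-nt class, with 35 higher and 136 lower (median -0.72). Beside these stand 36.0% of all features higher and 34.7% lower, which the siRNAs themselves largely make up. Of 75 tested siRNAs of 20 nt, 41 rose and 12 fell.

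**Figure D3:**
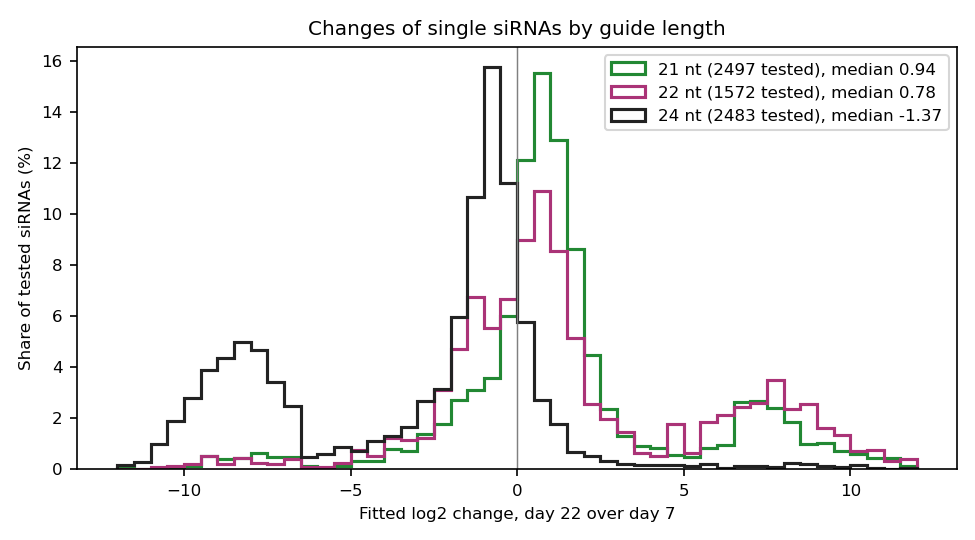
Distribution of the fitted log2 change of single tested siRNAs for guides of 21, 22 and 24 nt, as a percentage of each length, on bins of 0.5. The 24-nt curve lies mostly left of 0 and the shorter lengths mostly right of it; of the 1608 siRNAs past 6 in either direction, 1584 were listed at 0 in every library of one of the days.

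Many 24-nt siRNAs were listed at 0 at day 22. Of 2883 listed, 1097 had 0 in all 3 day 22 libraries and 77 in all 3 day 7 libraries. The order was opposite at 21 nt, with 200 at 0 at day 22 and 624 at day 7, and at 22 nt, with 145 and 498. No nonzero count below 10 is listed for predicted entries, so a 0 may stand for up to 9 reads. With every 0 set to 9 reads, the medians were -1.12 at 24 nt, 0.76 at 21 nt and 0.50 at 22 nt. The fall at 24 nt was also smaller among abundant siRNAs: the median was -1.20 from 10 to 50 CPM, -0.77 from 50 to 200 CPM and -0.35 from 200 CPM up, where 37 of 104 rose and 57 fell.

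What remained of the 24-nt pool was more concentrated and richer in G and C. Its 10 most abundant siRNAs held 9.09% to 10.96% of 24-nt reads at day 7 and 20.0% to 21.7% at day 22. The same share went from between 19.1% and 20.5% to between 26.5% and 28.5% at 21 nt and from between 24.9% and 25.7% to between 34.6% and 36.1% at 22 nt. Weighted by reads, the GC content of 24-nt guides was 47.2%, 47.3% and 46.97% at day 7 and 51.2%, 51.4% and 50.8% at day 22. For 21-nt guides these values were 47.02%, 47.3% and 46.99% and 47.8%, 47.8% and 47.2%, which overlap. Those of 23-nt guides went from 48.1%, 48.3% and 48.1% to 50.9%, 50.8% and 50.5% without overlap. The 24-nt siRNAs that rose had a median GC content of 50.0% and those that fell one of 45.8%; at 23 nt these medians were 52.2% and 43.5%. No test was made of these summaries.

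The first base of the guides shifted as well. An adenine start, typical of the 24-nt class, made up 77.7, 77.6 and 77.96% of 24-nt reads at day 7 and 73.3, 73.7 and 71.03% at day 22, and a cytosine start 13.2, 13.3 and 12.98% and 19.6, 19.4 and 21.3%. The shares of guanine (5.37% ± 0.135 to 4.62% ± 0.208) and uracil (3.703% ± 0.154 to 2.62% ± 0.188) were lower at day 22. None of the 4 overlapped between the days (exact permutation p 0.1 each). Of 2061 tested 24-nt siRNAs that start with adenine, 91 rose and 1319 fell (median -1.55), and of 209 that start with cytosine, 38 rose and 110 fell (median -0.71). Of those that start with guanine, 16 rose and 67 fell (median -0.64), and of those that start with uracil, 14 rose and 37 fell (median -0.71). In the order adenine, cytosine, guanine and uracil, 68.4%, 70.8%, 61% and 66.2% were called, near or below the 70.7% of all features. Those lower made up 64.0%, 52.6%, 49.3% and 48.1%, beside 34.7% of all features. In the 23-nt class the cytosine share went from 26.6% ± 0.185 to 42.2% ± 0.675 and the adenine share from 37.01% ± 0.557 to 29.04% ± 0.687. In the 22-nt class, uracil (T in the table) went from 19.7% ± 0.3305 to 26.4% ± 0.783 and cytosine from 46.4% ± 0.268 to 39.7% ± 1.31. In the 21-nt class, cytosine rose in share from 42.8% ± 0.487 to 46.1% ± 0.171 and guanine went from 9.04% ± 0.151 to 6.79% ± 0.204. All of these (SD, n = 3 each) had no overlap and an exact permutation p of 0.1. The shares of adenine at 21 and 22 nt, of uracil at 21 nt and of guanine at 22 nt overlapped between the days. Single siRNAs of 22 nt did not follow the read shares. Of 285 tested that start with uracil, 132 rose and 60 fell (median 0.63). Of 772 that start with cytosine, 394 rose and 162 fell (median 0.89). Those called made up 67.4% and 72%, near the 70.7% of all features. The abundant novel_sir17151, described below, starts with uracil, and its part in the uracil share was not tested.

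**Figure D4:**
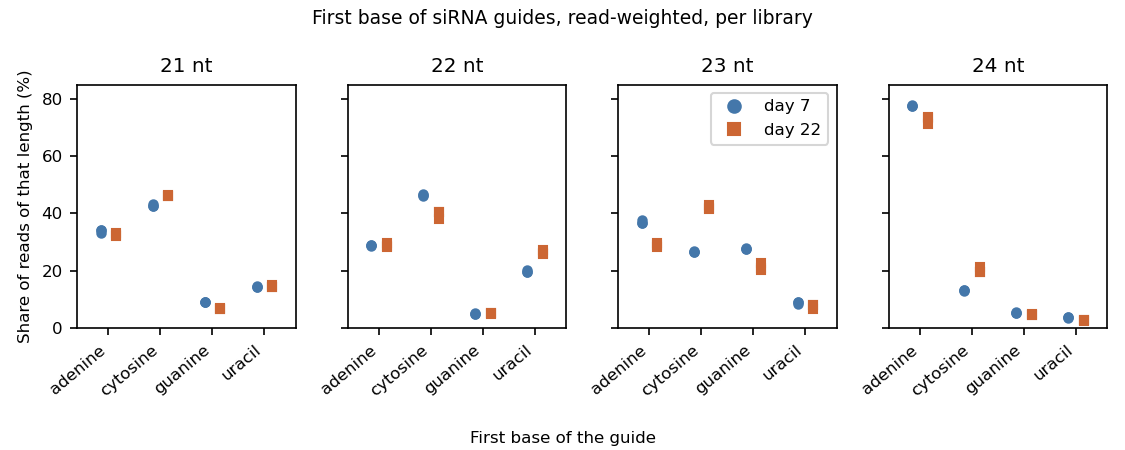
Share of siRNA reads of each length by the first base of the guide, in percent, with 1 point per library (circles, day 7; squares, day 22). The adenine share of 24-nt reads is 77.8% on average at day 7 and 72.7% at day 22, and the cytosine share of 23-nt reads 26.6% and 42.2%.

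Rises and falls of single siRNAs are ranked here only among called siRNAs without overlap between the days. They also had at least 100 CPM on average and reads in all 6 libraries. Other siRNAs, listed at 0 on one day, had larger fitted changes. The largest rise at 24 nt within these limits was that of novel_sir15189. It stood at 13.4, 13.7 and 15.9 CPM at day 7 and 1042, 1062 and 1040.2 CPM at day 22, a mean ratio of 73.03 (log2 change 6.19, SE 0.11, edgeR adjusted p 3.69e-08). The libraries of each day lay close together and the days far apart. With it, the group linked by shared 16-base stretches had 6 tested siRNAs, of 20 to 24 nt. All 6 rose, from a sum of 13.4, 13.7 and 15.9 CPM to 1228, 1247 and 1271 CPM. The day 7 sum is that of novel_sir15189 alone, so the other members were listed at 0 at day 7. novel_sir8810 rose from 93.1, 77.4 and 66.2 to 1526, 1698 and 1154 CPM, and the 21-nt novel_sir9209, which lies inside and beyond its 3′ part, from 182, 157 and 185 to 2839.6, 3106 and 2471 CPM. These 2 siRNAs of unlike length had log2 changes of 4.21 and 4.01. novel_sir7592 rose from 71.02, 45.5 and 67.7 to 1102, 1336 and 874 CPM (log2 change 4.17).

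The 3 largest falls at 24 nt within the same limits belonged to 1 group of overlapping siRNAs. novel_sir13019 stood at 1230.1, 1237 and 1259.7 CPM at day 7 and 23.3, 25.9 and 15.6 CPM at day 22, a 57.5-fold lower mean (log2 change -5.85, SE 0.21, edgeR adjusted p 3.64e-07). novel_sir11450, which shares 17 bases with it, went from 326, 319 and 312 to 8.34, 7.18 and 5.74 CPM, and novel_sir4547 from 762, 856 and 796 to 20.1, 24.05 and 12.8 CPM. All 11 tested members of the group fell, from a sum of 3452, 3553 and 3505 to 80.2, 85.9 and 57.9 CPM. The most abundant 24-nt siRNAs moved little by comparison. novel_sir6998 rose from 1115, 1000.1 and 977 to 3164, 3515 and 2735 CPM, novel_sir1060 fell from 2075, 2273 and 2214 to 1265, 1312 and 1418 CPM, and novel_sir11343, at 2836, 1954 and 1165 and 2521, 2851 and 1131 CPM, did not pass.

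At 22 nt the largest rise within these limits was that of novel_sir12307, from 6.700, 3.43 and 6.56 to 299.5, 328 and 309 CPM (log2 change 5.81, SE 0.20, edgeR adjusted p 3.64e-07). All 9 tested members of its group rose. novel_sir17151, among the 3 most abundant 22-nt siRNAs, went from 1384, 1304 and 1072 to 12635, 13216 and 12696 CPM, and novel_sir17197, which starts within it, from 203, 204 and 193 to 3654, 3799 and 3863 CPM. Their group of 13 tested members, 12 of them higher, rose in sum from 2831, 2748 and 2387 to 28489, 29412 and 29738 CPM. novel_sir8642 rose with a log2 change of 5.22. The falls within these limits were led by novel_sir11520, from 339, 333 and 335 to 7.47, 9.99 and 6.26 CPM (log2 change -5.41), followed by novel_sir15151 (-5.27) and novel_sir16486 (-4.72). novel_sir11520 and novel_sir16486 belong to 1 group of 25 tested members, mostly of 24 nt, in which all 25 fell, in sum from 3384, 3408 and 3625 to 172, 190.2 and 163 CPM. novel_sir14147, the most abundant 22-nt siRNA, rose from 12611, 11269 and 11659 to 20359, 20363 and 22395 CPM (log2 change 0.83), a call lost with known miRNA totals. novel_sir5940 rose with a log2 change of 0.50, whose call was lost with RLE size factors, DESeq2 and library totals and whose sign turned to -0.16 with known miRNA totals.

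At 21 nt the highest counts belonged to siRNAs that rose. novel_sir15071, the most abundant siRNA of all, went from 15117, 10415 and 13563 to 34636, 35193 and 28432 CPM (log2 change 1.33, SE 0.16, edgeR adjusted p 0.000115). novel_sir8790 went from 5078, 5209 and 5644 to 17449, 19508 and 18171 CPM and novel_sir8071 from 4357, 4008 and 4095 to 11256, 10496 and 11796 CPM, with no overlap. The largest rises within these limits were those of novel_sir19669, from 14.4, 20.6 and 13.4 to 372, 345 and 273 CPM (log2 change 4.35), of novel_sir10810 (4.27) and of novel_sir9209. In the other direction, novel_sir10419 fell from 769.8, 799 and 707 to 23.6, 19.99 and 19.04 CPM (log2 change -5.18) and novel_sir801 from 633, 679 and 661 to 18.97, 22.8 and 20.6 CPM (-4.98). novel_sir4227 fell with a log2 change of -4.44. novel_sir801, novel_sir15071 and novel_sir19669 share no 16-base stretch with another tested siRNA.

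Overlapping siRNAs mostly moved together. Linking siRNAs that share 16 bases on either strand gave 3957 groups among those tested, 1160 of them with at least 2 members. In 827 groups at least 2 members were called, in 768 of these all in 1 direction (433 higher and 335 lower) and in 59 in both. The largest had 45 tested members, all of which fell, in sum from 6645, 6497 and 6364 to 340.1, 369 and 285 CPM. The next, of 35 members, had 7 higher and 12 lower. Another of 31 members, all lower, fell from 3489, 3310.1 and 3385 to 251, 263 and 222 CPM. Of the groups next in size, that of 29 had 14 higher and 9 lower, that of 28 had 0 and 19, and that of 27 had 9 and 2. Members of a group share sequence, so they are not independent of each other. Over all features, 36.0% were higher and 34.7% lower. Direction also went with guide length, and the part of length in the agreement within groups was not tested.

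The length split was weaker within groups than across the whole pool. In the 169 groups that held both a 21- or 22-nt and a 24-nt member, the median of the group medians was 0.34 for the shorter and -0.07 for the longer members. The 24-nt members lay below the shorter ones in 108 of the 169. Both lengths had medians above 0 in 75 groups and below 0 in 56. In 30 groups the shorter members were above 0 and the longer below, and in 8 the reverse held.

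**Figure D5:**
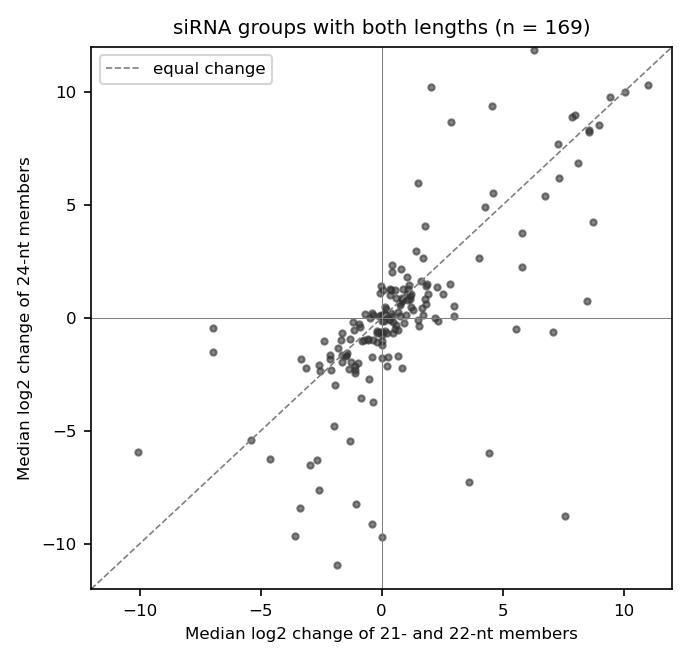
Each point is 1 of 169 groups of siRNAs that share sequence, with the median fitted log2 change of its 21- and 22-nt members on the horizontal axis and of its 24-nt members on the vertical axis. The dashed line marks equal change; 108 points lie below it, and 30 lie at the lower right, right of 0 and below 0.

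Predicted miRNAs had no common direction. Of 49 listed, 43 were tested, 18 rose and 14 fell, beside 36.0% and 34.7% of all features. The 20 tested ones of 20 to 24 nt, the usual length of plant miRNAs, had 8 rises and 8 falls. novel_mir84 fell from 97.1, 90.5 and 79.6 to 7.47, 9.99 and 7.04 CPM (log2 change -3.45, SE 0.17, edgeR adjusted p 8.17e-06) and novel_mir82 from 40.2, 31.8 and 33.7 to 6.04, 4.37 and 3.13 CPM (-2.96). novel_mir13 fell with a log2 change of -1.28. novel_mir46 rose from 65.7, 68.6 and 73.4 to 157, 150.2 and 139 CPM (log2 change 1.10) and novel_mir54 from 39.9, 38.4 and 28.7 to 83.7, 68.1 and 79.03 CPM (1.11). These 5 were picked by a rule that asked for no overlap between the days.

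The remaining named predictions were longer than a plant miRNA usually is. novel_mir9, of 25 nt, rose from 3.68, 3.43 and 4.995 to 59.2, 57.2 and 69.1 CPM (log2 change 3.92, edgeR adjusted p 7.58e-06). novel_mir59, of 29 nt, stood at 476, 276 and 83.05 CPM and 1838, 3803 and 535 CPM, and novel_mir98, of 25 nt, at 116, 135 and 56.5 CPM and 1009, 1156 and 625 CPM. Both were called higher (log2 changes 2.89 and 3.18), with their lowest values in replicate 3 of either day, where the share of ribosomal RNA was also lowest, and whose part was not tested. The call for novel_mir59 was lost with known miRNA totals, without day 7 replicate 2 or 3 and without day 22 replicate 2. novel_mir71 and novel_mir57, both of 30 nt, fell with log2 changes of -2.35 and -1.07.

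Fragments of structural RNA rose where they passed, with few exceptions. Of 42 tested small nucleolar RNAs, which guide the modification of ribosomal RNA, 25 rose, 16 did not pass and 1, the small Cajal body RNA 6, fell (means 2.23 and 0.861 CPM), with a median log2 change of 1.51. The share called in either direction was 61.9% beside 70.7% of all features, and that called higher 59.5% beside 36.0%. snoR20a rose from 67.7, 73.6 and 79.3 to 191, 198 and 162 CPM (log2 change 1.32), whereas U3, which acts in processing of the ribosomal precursor, stood at 136, 111 and 130.2 and 140.0, 143 and 113 CPM and did not pass, but was called lower with library totals (log2 change -0.40) and known miRNA totals (-0.59). Chosen after their values were seen, SNORD14 rose from 30.5, 17.2 and 17.8 to 140.3, 147 and 154 CPM, U61 from 6.03, 3.74 and 3.12 to 58.4, 61.2 and 42.3 CPM and snoR86 from 3, 5 and 0 to 151, 144 and 130 reads. In share of small RNA reads, small nucleolar RNA came to 0.0769% ± 0.0101 and 0.123% ± 0.0198 (SD, n = 3 each; exact permutation p 0.1).

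Other structural RNAs were less even between libraries. The small subunit ribosomal RNA rose from 20326, 18281 and 16002 to 39223, 42883 and 26164 CPM (log2 change 0.99, edgeR adjusted p 0.00288) and 5.8S from 3633, 2714 and 2412 to 6043, 9055 and 4273 CPM. The large subunit (log2 change 1.50, edgeR adjusted p 0.0222) and a bacterial-type small subunit (1.24, 0.0444) also passed, which makes 4 of 9 tested called, or 44.4% beside 70.7% of all features. The calls for the last pair were lost in 7 and 10 of 17 alternatives, and those for the small subunit and 5.8S with known miRNA totals. Transfer RNA rose from 44.2, 43.4 and 23.1 to 273, 470.3 and 278 CPM (log2 change 3.20, SE 0.85), a call lost with replicates 1 and 2 alone. The spliceosomal U6 rose from 1027, 970.5 and 959 to 1541, 1550.0 and 1492 CPM (log2 change 0.63, turned to -0.022 with known miRNA totals) and U2 did not pass. Transfer-messenger RNA, known from bacteria and some plastids, stood at 1228, 1169.8 and 997 and 2856, 2882 and 985 CPM and did not pass (edgeR adjusted p 0.0565), but did in 7 of 17 alternatives, among them that without day 22 replicate 3.

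Reads assigned to precursor models of plant miRNAs can be set beside the families. The model MIR159 rose from 50.2, 101 and 40.3 to 433, 543 and 219 CPM (log2 change 2.64, edgeR adjusted p 0.000453), while the miR159 family did not pass. MIR169_2 rose from 66.7, 72.4 and 74.6 to 274, 314 and 373 CPM (log2 change 2.17) beside 1.75 for the miR169 family. Chosen after their values were seen, MIR167_1 rose with a log2 change of 2.12 and MIR168 with one of 1.58, a call lost in 5 of 17 alternatives. The mir-393 precursor model fell with a log2 change of -1.80, as the miR393 family did. Of the 10 tested models not named after animal miRNAs, 4 rose and 1 fell. Of the 20 named after animal miRNAs, 4 rose and 0 fell in edgeR. Together 30.0% were called beside 70.7% of all features, and 26.7% were higher beside 36.0%.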

How the data were processed

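Small RNA was sequenced from 9 libraries of sunflower seeds, 3 per day at 7, 22 and 37 days. Per the labels' protocols, RNA of 18 to 30 nt was cut from a gel and ligated to adapters with unique molecular identifiers. The counting tool, the genome build and any collapsing by these identifiers are not stated there. The submitters' processing notes name Bowtie2 without a version. The deposited table holds raw whole-number read counts per entry, per the file headers; 9 further columns headed TPM were not used.

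Counts were tested with edgeR 4.0.16 in R 4.3.3 (TMM scaling, filterByExpr by day, quasi-likelihood F test, all 9 libraries fitted together, each day with its mean), after known miRNA entries were summed by family number. Adjusted p-values are Benjamini-Hochberg over all 7088 features tested, with a threshold of 0.05. Mean shares were compared by exact two-sided permutation tests of 3 against 3 libraries. Scripts were tested on simulated data. Alternatives included DESeq2 1.42.0, other scalings, other filters, leaving out each replicate, a replicate block and mature entries alone. Members, lists and tests were chosen with earlier results of these data known. By rule the text names families and predicted miRNAs of at least 10 CPM, siRNAs and structural RNAs of at least 100 CPM, and among predicted miRNAs and siRNAs with reads in all 6 libraries the largest rises and falls without overlap and the most abundant. Mature sequences of known miRNAs were not used here.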

Additional observations from a re-analysis of the deposited data

How the results depend on the processing

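The fall of 24-nt siRNAs and the rise of 21-nt siRNAs kept their direction under all alternatives, with medians from -2.11 to -0.98 and from 0.25 to 1.11. The counts over all small RNAs, 2549 higher and 2459 lower, came to 2077 and 2915 with RLE size factors, 2134 and 2887 with DESeq2, 1965 and 3045 with library totals, 2655 and 2338 with all reads as library size, and 1852 and 1830 with a 10 CPM filter. Leaving out each replicate gave 2303 to 2405 higher and 2390 to 2496 lower. Small RNA reads were a larger part of all reads at day 22, and the part of this in the effect of the scaling was not tested. Low depth of many entries limits the counts. Of 1578 values of named features under alternatives, 1451 kept direction and side of the threshold. Many of the siRNAs and predicted miRNAs among them were picked as called and without overlap. This number therefore does not describe features in general.

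Families called lower numbered 6 with RLE size factors, library totals or DESeq2 and 8 with known miRNA totals, against 3. With known miRNA totals, 1604 small RNAs, 9 predicted miRNAs, 14 snoRNAs, 846 siRNAs of 21 nt, 22 of 23 nt and 90 of 24 nt were higher, 585 of 21 nt and 3 snoRNAs were lower, and the median of predicted miRNAs was -0.13. snoRNAs lower numbered 3 with library totals and 0 with the 10 CPM filter or 6 libraries alone in edgeR, and 0 to 1 without each replicate. The 10 CPM filter left 9 predicted miRNAs lower, 12 snoRNAs higher and 505 siRNAs of 22 nt higher. Known entries tested singly gave 88 higher and 19 lower. Summing siRNAs that share a stretch left 90 of 23 nt lower and 97 of 24 nt higher. Fewer features were tested there.

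With RLE size factors the log2 change was -0.32 for miR166, -0.25 for miR319, -0.29 for miR395, -0.22 for novel_sir11343, -0.13 for U2 and -0.28 for U3. With DESeq2 it was -0.32, -0.26, -0.29, -0.22, -0.13 and -0.28 in the same order, and with library totals -0.44, -0.37, -0.40, -0.35, -0.25 and -0.40, with -0.059 for miR396, -0.12 for miR858, -0.081 for miR159 and -0.034 for miR398. With known miRNA totals it was -0.62, -0.56, -0.58, -0.51, -0.43 and -0.59 in that order, then -0.25 for miR396, -0.30 for miR858, -0.26 for miR159, -0.22 for miR398, -0.16 for novel_sir5940, -0.022 for U6 and -0.075 for the mir-166 precursor model. Mature entries alone gave -0.97 for miR172. Without each replicate in turn, the log2 change ranged from -0.15 to 0.027 for miR166, from -0.12 to 0.20 for miR319, from -0.19 to 0.15 for miR395, from -0.090 to 0.096 for U3, from -0.012 to 0.37 for U2 and from -0.21 to 0.40 for novel_sir11343. With replicates 1 and 2 alone, chosen after seeing the data, it was -0.084 for miR166, -0.16 for miR319 and -0.34 for miR395. None of these passed in edgeR under the reported scaling except miR396, miR858, miR398, miR172, novel_sir5940 and U6. Those called lower under another scaling were miR166 with all 4, U3 with library totals and known miRNA totals, and miR319 and miR858 with known miRNA totals. The causes were not tested.

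In percentage points, the change of the 22-nt share was 0.59 as a share of all reads. That of 22-nt guides starting with A was 0.92 without the 10 most abundant entries and -0.55 to 0.23 without each replicate, and that of 21-nt guides starting with T was -0.033 with replicates 1 and 2 alone. The replicate numbers were not taken to pair the libraries: the correlations of same-numbered deviations were 0.03, 0.06 and 0.10, although every day 7 library correlated best with its own number. With the number as a replicate block, 2248 small RNAs were higher and 1970 lower, snoRNAs called lower went from 1 to 0, and the bacterial-type small subunit ribosomal RNA lost its call.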
